A study of Homo sapiens with 6 samples.

Results

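The regions described here are 4 windows of the human genome at the starts of 6 genes, TFAP4, GSE1, TYMP, ODF3B, HSF2BP and RRP1B, where RNA polymerase I (Pol I) peaks of vehicle-treated LNCaP cells stood among the highest in score. The windows, on the hg19 build and in kb, were chr16 4307 to 4323 (TFAP4), chr16 85645 to 85710 (GSE1), chr22 50964 to 50971 (TYMP and ODF3B) and chr21 44949 to 45116 (HSF2BP and RRP1B, whose starts diverge near 45079), each with 10 kb added on both sides. They held 31 of the 84817 peaks in the deposited lists. The members were chosen by the score of their DMSO Pol I peaks, so those scores, with the number, width and spacing of the DMSO Pol I peaks, are described and not tested.

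The data are ChIP-seq peak lists of LNCaP, an androgen-responsive prostate cancer cell line, from cells exposed to 1 µM BMH-21 or to the solvent DMSO, read at 6 h. BMH-21 binds DNA by intercalation and is known as a Pol I inhibitor. One antibody was a Pol I antibody (C-1) and the other (4H8) recognises RNA polymerase II (Pol II) whose C-terminal repeats are phosphorylated at serine 5. The 4 groups were BMH-21 Pol I, DMSO Pol I, BMH-21 Pol II and DMSO Pol II with 1 library each, and 2 input libraries were not analysed here. Differences between groups thus come without replicate spread or test, and read depth is unknown because the lists hold no read counts. The lists measure no marker genes, so the labelled cell line was not checked.

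Pol I transcribes the ribosomal RNA precursor in the nucleolus, while Pol II transcribes protein-coding genes. Pol II phosphorylated at serine 5 is known to be concentrated near the starts of genes that are being transcribed. The genes of these windows are transcribed by Pol II. TFAP4 encodes AP-4, a basic helix-loop-helix transcription factor induced by MYC. GSE1 encodes a coiled-coil protein found with histone demethylase and deacetylase complexes. TYMP encodes thymidine phosphorylase, which splits thymidine into thymine and a sugar phosphate. ODF3B, which RefSeq now lists as CIMAP1B, is related to a protein of the outer dense fibres of the sperm tail. HSF2BP encodes a partner of BRCA2 in meiotic recombination, and RRP1B a nucleolar protein related to a yeast factor of ribosomal RNA processing.

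Promoter sequences are shown because the leading Pol I peaks lie at or near gene starts, which the windows give to the nearest kb. RefSeq promoters, 250 bases before to 50 bases after a start, matched 3 of the 6 genes (GSE1, TYMP and ODF3B). No sequence is shown for TFAP4, HSF2BP and RRP1B. The positions of these sequences are on GRCh38 and cannot be set beside the hg19 positions of the peaks. Whether a sequence shown here lies under a peak is thus not known. They are GSE1 at chr16:85613072-85613371 on the plus strand, TYMP at chr22:50530036-50530335 on the minus strand and ODF3B at chr22:50532449-50532748 on the minus strand. Capitals mark GGGCGG or its reverse complement, the letters of a GC box.
GSE1: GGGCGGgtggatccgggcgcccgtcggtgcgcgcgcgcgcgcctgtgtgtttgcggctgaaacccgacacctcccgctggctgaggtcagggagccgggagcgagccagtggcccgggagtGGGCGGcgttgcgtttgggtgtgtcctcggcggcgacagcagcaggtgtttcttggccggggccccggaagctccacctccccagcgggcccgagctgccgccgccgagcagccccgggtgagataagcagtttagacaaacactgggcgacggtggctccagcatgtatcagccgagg
TYMP: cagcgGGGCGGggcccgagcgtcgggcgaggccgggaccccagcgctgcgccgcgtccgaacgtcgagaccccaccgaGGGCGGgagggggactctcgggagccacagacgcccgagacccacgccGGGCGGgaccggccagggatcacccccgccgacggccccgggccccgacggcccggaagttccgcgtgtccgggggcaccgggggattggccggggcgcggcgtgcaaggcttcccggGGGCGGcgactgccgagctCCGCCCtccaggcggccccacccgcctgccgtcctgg
ODF3B: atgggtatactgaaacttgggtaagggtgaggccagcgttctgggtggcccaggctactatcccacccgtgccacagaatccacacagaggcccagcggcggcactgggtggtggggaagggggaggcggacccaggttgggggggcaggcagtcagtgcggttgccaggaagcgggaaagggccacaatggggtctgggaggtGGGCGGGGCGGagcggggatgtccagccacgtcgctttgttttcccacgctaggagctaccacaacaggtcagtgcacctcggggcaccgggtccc

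The 3 promoters had more GC than the median promoter, TYMP most of all and ODF3B least. Of all promoters, 97.9% had a lower GC content than TYMP, 81.9% than GSE1 and 68.7% than ODF3B. For CG pairs ODF3B was near typical, with 51.1% of promoters holding fewer. GC content was 80.7% for TYMP, 71.0% for GSE1 and 65.7% for ODF3B, against a median of 58.7% over the 35116 promoters of the table. TYMP had 46 CG pairs, GSE1 34 and ODF3B 15, against a median of 14. GGGCGG, searched on both strands, occurred 5 times for TYMP and 2 times each for GSE1 and ODF3B, where the pair overlaps. It is held by 45.0% of all promoters. The table gives a further start for TYMP (GC content 80.3%, 5 matches) and for ODF3B (GC content 66.7%, 2 matches). TATAAA, held by 11.5% of all promoters, had 0 matches in these 5 sequences. CAGCTG, the element AP-4 is known to bind, and CACGTG, a related E-box, had 0 matches as well, against 17.9% and 7.26% of all promoters. The wider pattern CANNTG, which includes both, matched 1 time for GSE1 and 2 times for the further start of ODF3B, against 68.7% of all promoters. CCAAT matched 1 time in each TYMP sequence, against 34.6%. These are matches of letters and not binding sites.

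In the Pol I lists, the 4 windows held 0 BMH-21 peaks and 18 DMSO peaks. In the Pol II lists they held 1 BMH-21 peak and 12 DMSO peaks. The 4 windows with flanks measure 335 kb, so the density was 0 BMH-21 and 53.7 DMSO Pol I peaks per Mb, and 2.99 BMH-21 and 35.8 DMSO Pol II peaks per Mb. Over the span from the first to the last listed peak of each chromosome, the whole lists averaged 0.663 BMH-21 and 14.2 DMSO Pol I peaks per Mb, and 3.85 BMH-21 and 9.60 DMSO Pol II peaks per Mb. The windows were chosen for their DMSO Pol I peaks, so nothing is read from the density of that list. With 0.663 peaks per Mb in the whole BMH-21 Pol I list, its 0 in 335 kb is not read as a result about the windows either. Of the listed DMSO Pol I peaks, 0.0423% (exact 95% interval 0.0251 to 0.0669) lay in the windows, and of the DMSO Pol II peaks 0.0417% (0.0215 to 0.0728). These intervals cover counting error over peaks only. Peak names carry running numbers, and the lists lack unlike shares of them. Missing were 87.7% for BMH-21 Pol I and 23.3% for DMSO Pol I, and 77.0% for BMH-21 Pol II and 48.1% for DMSO Pol II. The counts and densities are thus of listed peaks and do not measure occupancy.

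**Figure D1:**
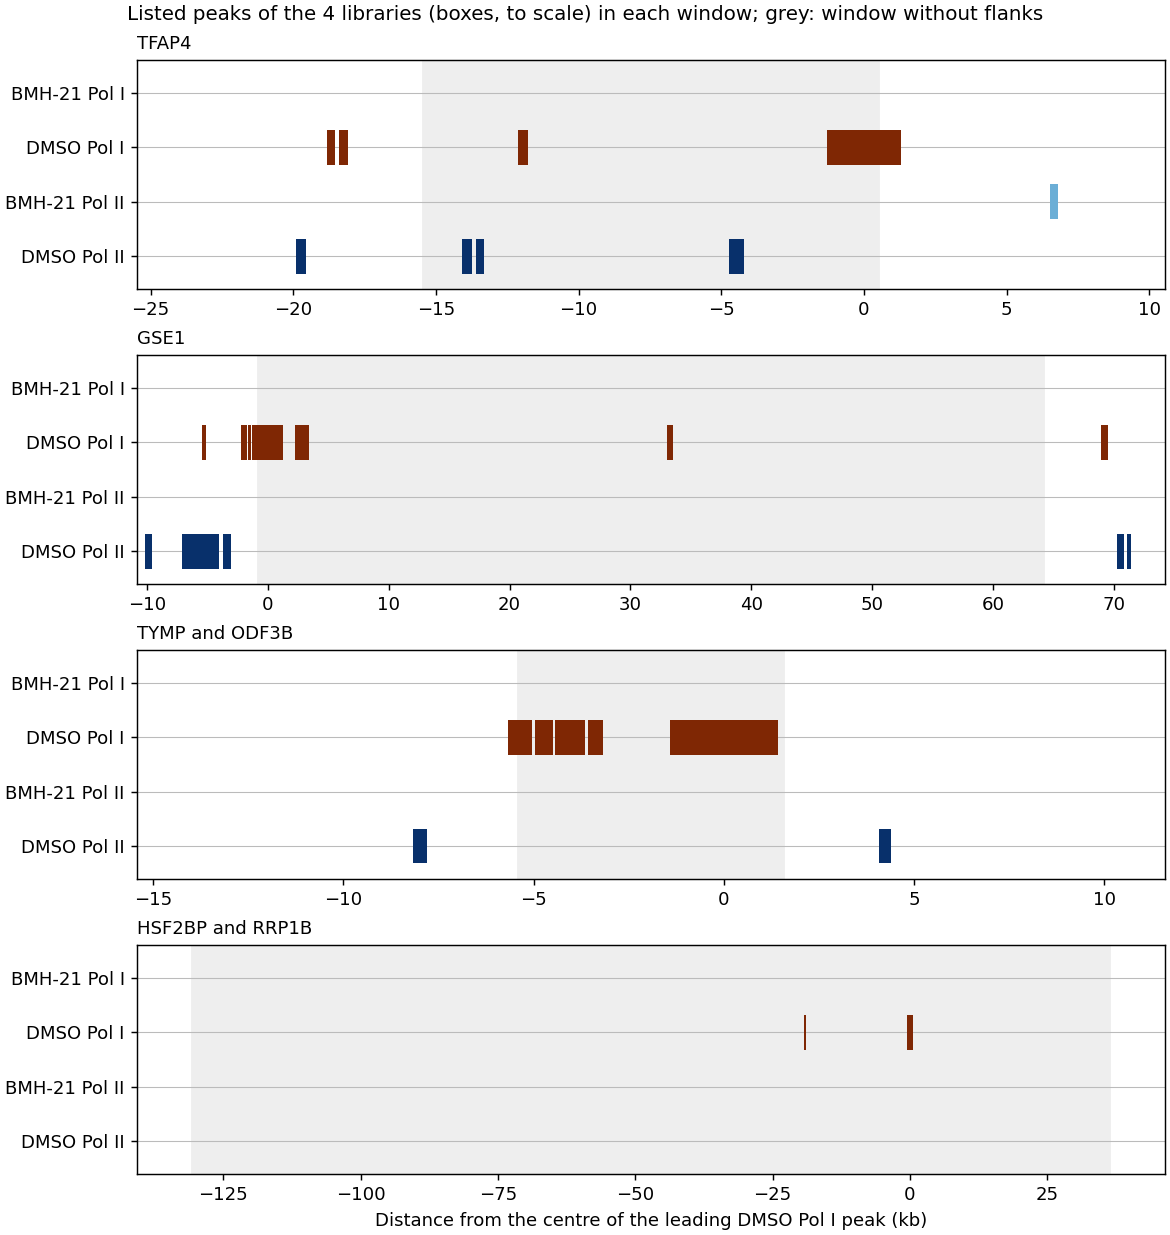
Listed peaks of the 4 libraries in each window, as boxes to scale along the distance in kb from the centre of the leading DMSO Pol I peak, with the window without flanks in grey; boxes with short gaps between them touch at this scale. The BMH-21 Pol I row is empty in all 4 panels, and the HSF2BP and RRP1B panel holds 2 DMSO Pol I peaks and no others.

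Each window had 1 DMSO Pol I peak far above its neighbours in score. The score is the authors' value per peak, headed as a p-value in the files, and has no listed value below 50. It is used here only within a list, except in the alternatives that changed the score threshold. At TFAP4 the leading peak ran from 4321173 to 4323750 on chromosome 16, was 2578 bp wide and scored 1326.79, rank 1 of 42547. At GSE1 it ran from 85644522 to 85647070, was 2549 bp wide and scored 1109.71, rank 2. These peaks covered the gene starts as the windows give them to the nearest kb. RefSeq annotates GSE1 over 507 kb and HSF2BP over 215 kb on GRCh38, so their windows of 65 and 167 kb hold a part of each gene.

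At TYMP and ODF3B the leading peak ran from 50967999 to 50970828 on chromosome 22, was 2830 bp wide and scored 1036, rank 4. It ended 172 bp inside the upper edge of the window, which is less than the kb rounding of that edge. RefSeq on GRCh38 places 340 bases between TYMP and ODF3B, which both run on the minus strand, and has TYMP overlapping SCO2, a cytochrome c oxidase assembly gene. At HSF2BP and RRP1B the peak ran from 45079033 to 45080240 on chromosome 21, was 1208 bp wide and scored 1031.38, rank 5. It began 33 bp above the rounded divergent start, and RefSeq leaves 71 bases between these genes on GRCh38. No single gene can be assigned to either of these peaks from the lists.

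The leading peak on chromosome 21 was narrower than the other three and scored more per length. It had a score of 85.4 per 100 bp, against 51.5 at TFAP4, 43.5 at GSE1 and 36.6 at TYMP and ODF3B. The scale of the score is not stated, so ratios of scores here and below are not read as ratios of signal. In the DMSO Pol I list, 1.05% of peaks were wider than the HSF2BP and RRP1B peak, against 0.0282%, 0.0306% and 0.0188% for the TFAP4, GSE1 and TYMP and ODF3B peaks. The median width of that list was 464 bp. By score, the peak at rank 3, on chromosome 1 from 28836116 to 28838391 (1105.75), and that at rank 6, on chromosome 12 from 56497611 to 56499120 (1026.16), were not among the windows. The other 16 of the 20 highest-scored peaks were 748 to 2414 bp wide with a median of 1012.5 bp, and 3 of them were wider than 2000 bp, as were 3 of the 4 leading peaks. At 1208 bp the HSF2BP and RRP1B peak was above that median, so it was narrow only beside the other leading peaks.

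**Figure D2:**
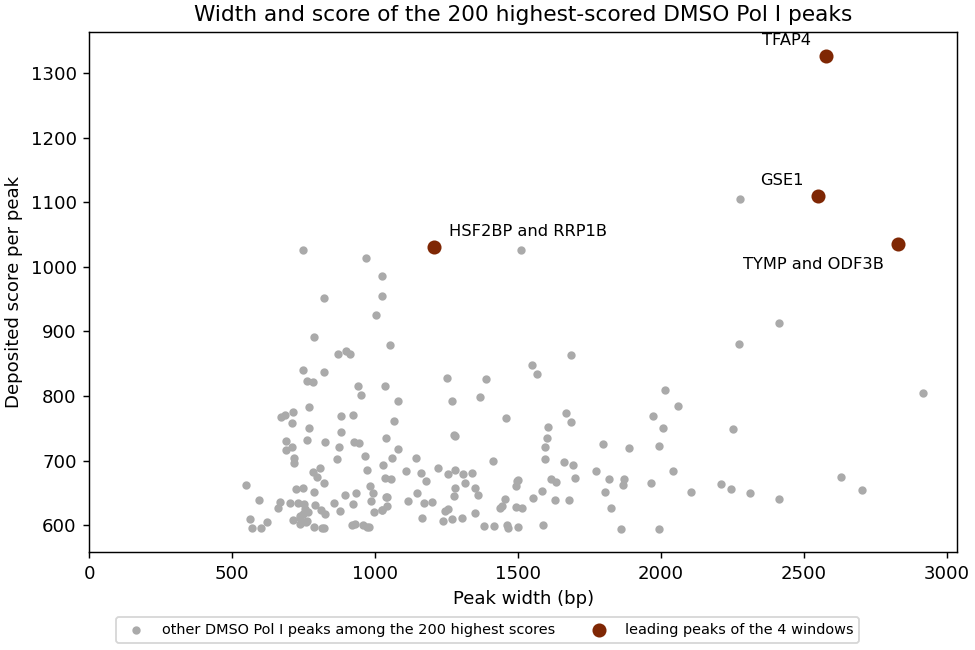
Width in bp (x axis) and deposited score (y axis) of the 200 highest-scored DMSO Pol I peaks, 1 point each, with the leading peaks of the 4 windows in brown. The TFAP4, GSE1 and TYMP and ODF3B peaks are 2549 to 2830 bp wide, and the HSF2BP and RRP1B peak is 1208 bp wide at a score of 1031.38.

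The other 14 DMSO Pol I peaks of the windows scored from 50.08 to 367.06 and were 264 to 1109 bp wide. Their median score was 136.3, above that of the list but far below the leading peaks. Of all 18 peaks, 5 scored below the list's median of 98.3. The leading score was 7.35 times the next highest in the TFAP4 window, 3.02 times at GSE1, 4.19 times at TYMP and ODF3B and 9.46 times at HSF2BP and RRP1B. Of the bases under DMSO Pol I peaks, the leading peak made up 73.3% in the TFAP4 window, 43.3% in the GSE1 window, 55.4% in the TYMP and ODF3B window and 74.3% in the HSF2BP and RRP1B window.

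The windows differed in how these smaller peaks were placed. At TYMP and ODF3B, 4 peaks from 50963741 to 50966225 followed each other with gaps of 76, 67 and 60 bp, at the lower end of the window, where TYMP ends. Their scores in order of position were 247.49, 107.79, 182.80 and 72.72, and 1773 bp separated the last of them from the leading peak. At GSE1, 2 peaks (scores 163.61 and 54.95) ended 469 bp and 143 bp before the leading peak, and a peak of 1109 bp (score 198.19) began 1005 bp after it. Another lay in the window at 85678789 to 85679297 (184.54), and the second highest, 367.06, at 85714725 to 85715339 in the upper flank. RefSeq on GRCh38 has other genes overlapping GSE1, among them GINS2 and GSE1-AS1, so these smaller peaks were not assigned to a gene.

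At TFAP4 the other peaks were 1 inside the window at 4310342 to 4310702 (score 180.47) and 2 in the lower flank (52.45 and 51.88). At HSF2BP and RRP1B the only other DMSO Pol I peak ran from 45060263 to 45060679 (109.02), 18353 bp below the leading peak. Of the 18 DMSO Pol I peaks, 9 had another listed DMSO Pol I peak within 1000 bp, against 12.7% of the whole list. These 9 were in the windows of TFAP4, GSE1 and TYMP and ODF3B. The DMSO Pol I peaks nearest outside the flanked windows were on chromosome 21, 1740 bp below (score 240.64) and 6060 bp above (156.72) the HSF2BP and RRP1B window. Elsewhere they were at least 28.8 kb outside.

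**Figure D3:**
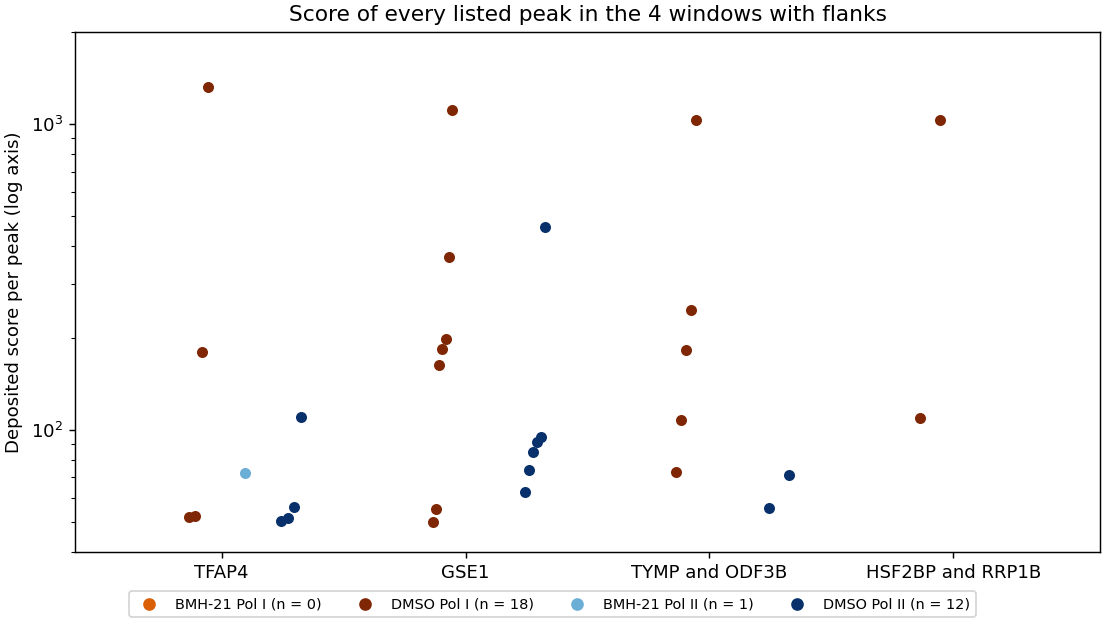
Deposited score on a log axis of every listed peak in the windows with flanks, 1 point per peak, by window and library. In each window the leading DMSO Pol I peak, from 1031.38 to 1326.79, stands above the other DMSO Pol I peaks, which reach 367.06; heights are to be read within a library, since the scale of the score may differ between lists.

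In the BMH-21 Pol I list, no peak lay in a window. The nearest to a leading peak was 210248 bp away at TFAP4, 908736 bp at GSE1, 468242 bp at TYMP and ODF3B and 263750 bp at HSF2BP and RRP1B. The median distance from a DMSO Pol I peak to the nearest BMH-21 Pol I peak was 618 kb, so these distances were of the order of the whole list. Across the whole DMSO Pol I list, the share of peaks with a BMH-21 Pol I peak on them was 0%, the same as for these 18. The lack of a BMH-21 Pol I peak at the leading peaks is therefore common to all listed DMSO Pol I peaks and is no result about these genes. How the listed peaks were selected is not stated, so whether the Pol I lists of the treatments could overlap at all is not known.

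In DMSO cells, listed Pol II peaks lay near 3 of the 4 leading Pol I peaks. None of the 4 leading peaks was overlapped by a DMSO Pol II peak, and 1 of the 18 DMSO Pol I peaks was, against 14.0% of the whole list. The nearest DMSO Pol II peak was 1747 bp from the leading peak at GSE1, 2675 bp at TYMP and ODF3B and 2907 bp at TFAP4, but 60465 bp at HSF2BP and RRP1B. A DMSO Pol II peak was thus within 10 kb of 3 of the 4 leading peaks, against 34.1% of all DMSO Pol I peaks. The same held for 8 of the other 16 peaks among the 20 highest in score and for 112 of the 200 highest. Of all 18 DMSO Pol I peaks in the windows, 15 had one within 10 kb. Peaks of the same window share Pol II neighbours, so the 18 are not separate observations. With 4 leading peaks in 1 library, these shares were not tested against the whole list.

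The GSE1 window had the highest-scored DMSO Pol II peak of the windows, and its 6 DMSO Pol II peaks were all in the flanks. The highest, 2576 bp wide, ran from 85638726 to 85641301 with a score of 460.1, rank 392 of 28798. It covered the whole of a DMSO Pol I peak at 85640349 to 85640714, whose score of 50.08 is close to the lowest listed. This is the only overlap between libraries in the 4 windows. Below and above it, 3 more DMSO Pol II peaks (scores 84.96, 73.96 and 91.61) continued the run until 1747 bp before the leading Pol I peak. Past the upper end of the window, DMSO Pol II peaks of 94.7 and 62.83 began 754 bp after the DMSO Pol I peak that scored 367.06.

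At TFAP4, 4 DMSO Pol II peaks were listed with scores of 56.03, 51.41, 50.39 and 110.43, and the last of these was the one closest to the leading Pol I peak. At TYMP and ODF3B there were 2, of 71.2 below and 55.53 above the genes, both in the flanks. HSF2BP and RRP1B had 0. Of the 12 DMSO Pol II peaks, 7 scored below that list's median of 81.02. The DMSO Pol II peak nearest outside the flanks was 24 bp beyond the lower flank of GSE1 (score 51.77).

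The single BMH-21 peak of the windows was a Pol II peak in the upper flank of TFAP4, from 4328977 to 4329253, 277 bp wide with a score of 72.35. It was 5226 bp above the leading DMSO Pol I peak. No BMH-21 Pol II peak overlapped any of the 18 DMSO Pol I peaks, against 2.43% of the whole DMSO Pol I list. The nearest BMH-21 Pol II peak to the leading peak was 15907 bp away at GSE1, 53481 bp at HSF2BP and RRP1B and 72668 bp at TYMP and ODF3B. Of these same peaks, the one at HSF2BP and RRP1B (score 77.99) lay 7722 bp beyond the upper flank. The one at GSE1 (score 54.38) lay 6386 bp beyond the lower flank.

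The absence of listed Pol II peaks at these starts is limited by gaps in the peak numbering. Peak names carry running numbers in genome order, and numbers are missing between listed neighbours. If a missing number was a peak that was called and then left out, which no source used here states, its position within the stretch, its width and its score are not given. In the BMH-21 Pol II list, the stretch around the leading peak skipped 7 numbers at TFAP4, 81 at GSE1, 13 at TYMP and ODF3B and 9 at HSF2BP and RRP1B. In the DMSO Pol II list it skipped 1 at TFAP4, 6 at GSE1, 1 at TYMP and ODF3B and 4 at HSF2BP and RRP1B. The narrowest of these stretches, in the DMSO Pol II list at TYMP and ODF3B, spanned 11900 bp from 50961603 to 50973504. A peak with the missing number, if there was one, may have been anywhere in that stretch, including at the gene starts.

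Such stretches were common in the lists. All 4 leading peaks lay in a BMH-21 Pol II stretch with a skipped number, against 95.9% of DMSO Pol I peaks, and all 4 in a DMSO Pol II stretch with one, against 84.0%. The DMSO Pol II stretches were 66.4 kb at TFAP4, 73.3 kb at GSE1 and 294 kb at HSF2BP and RRP1B, against a median of 242 kb around all DMSO Pol I peaks. The GSE1 stretch skipped 6 numbers, against a median of 2. The BMH-21 Pol II stretch at GSE1 was 2.10 Mb long, and where in it the 81 skipped numbers belong is not given. Around all DMSO Pol I peaks, the BMH-21 Pol II stretch had a median length of 732 kb with a median of 7 skipped numbers.

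For Pol I, the BMH-21 stretch skipped 3 numbers over 0.451 Mb at TFAP4, 23 over 4.52 Mb at GSE1 and 13 over 1.83 Mb at HSF2BP and RRP1B. Around all DMSO Pol I peaks the medians were 16 numbers and 3.20 Mb. At TYMP and ODF3B no later BMH-21 Pol I peak was listed on chromosome 22, so none could be counted. In the DMSO Pol I list, 0 numbers were skipped on either side of each leading peak up to the next listed one. Within the GSE1 window 2 DMSO Pol I numbers were missing, 1 between 85649184 and 85678789 and 1 between 85679297 and 85714725. Whether Pol I or Pol II occupied these starts after BMH-21 could not be read from the lists, because the lists do not show where a polymerase was absent.

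**Figure D4:**
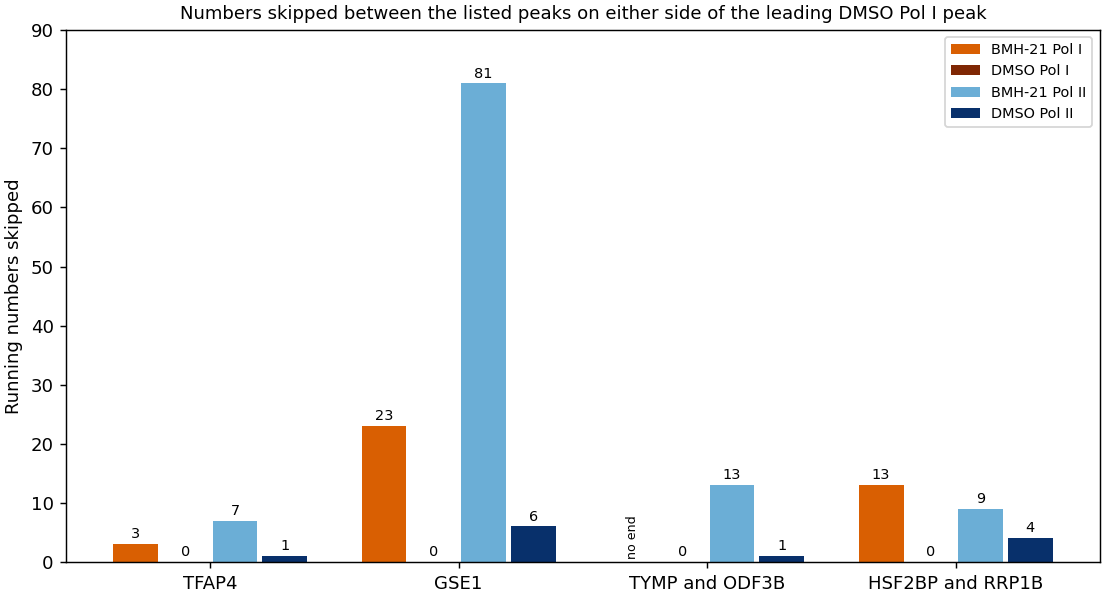
Running numbers skipped (y axis) between the listed peaks on either side of the leading DMSO Pol I peak, by window and library, with the count above each bar; "no end" marks a chromosome end without a later listed peak. The stretches differ in length, from 3697 bp (DMSO Pol I at GSE1) to 4.52 Mb (BMH-21 Pol I at GSE1). DMSO Pol I skipped 0 in the stretch around each leading peak.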

How the data were processed

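Each of the 4 ChIP libraries of LNCaP cells had 1 deposited peak list with chromosome, start, end, a numbered peak name and a score. The authors' score is headed as a p-value per the file headers, and its scale is not stated. The submitters' processing notes name CASAVA (1.8.2), Bowtie2 (2.2.1), deepTools (3.5.4) and the hg19 build. Peak names begin with MACS, a peak caller, per the file headers. For its settings, the use of the inputs and the selection of listed peaks, no source used here gives an account. Library depth may set how many peaks pass a caller's threshold.

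Groups were taken from the sample titles. A peak belonged to a window when it overlapped it by 1 bp or more, positions are given from 1, and overlap between libraries meant 1 bp or more. Distances are the bases between 2 peaks. Skipped numbers were counted between the listed peaks on either side of a leading peak, a count checked on simulated data. The windows, genes and comparisons were chosen with earlier results of these data known. Named are the 6 genes, with every listed peak of their windows accounted for. The 20 highest-scored DMSO Pol I peaks served as a comparison, and the groups of 200 and of peaks over 2000 bp were added after the windows had been analysed. With 1 library per group no test was made. Shares have exact Clopper-Pearson 95% intervals. Alternatives changed the score threshold, the flank, the minimum width and the overlap rule. Gene order and promoters came from RefSeq on GRCh38, so exons and introns under the peaks were not assigned. Python 3.11.15, NumPy 2.4.6, pandas 2.3.3, SciPy 1.17.1 and matplotlib 3.10.9 were used.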

Additional observations from a re-analysis of the deposited data

How the results depend on the processing

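Of 44 alternative values over 12 counts and lengths, 27 stayed within 1.5 times the main value and 17 did not. The number and length of the DMSO Pol I peaks stayed so under every setting. For BMH-21 Pol I peaks and for overlaps of the leading peaks, the main values were 0. A stricter score, width, flank or overlap rule cannot raise a 0, so values that stayed 0 under such rules show no stability. Only wider flanks or an allowed distance could have raised them. BMH-21 Pol II went from 1 peak and 277 bp to 0 peaks and 0 bp with the score threshold at the DMSO median, with no flank and with peaks of at least 300 bp, and to 4 peaks and 1011 bp with flanks of 25 kb. The threshold was the DMSO Pol II median of 81.02, taken from another list whose scale may differ. The BMH-21 Pol II peak, at 72.35, was above the median of its own list, 60.44. DMSO Pol II went from 12 peaks and 7310 bp to 5 peaks and 4871 bp at that threshold, 3 peaks and 1138 bp with no flank, and 23 peaks and 11933 bp with flanks of 25 kb. A narrower or wider window holds fewer or more peaks by construction. With a distance of up to 5000 bp counted, 3 leading peaks had a DMSO Pol II neighbour in place of 0. With up to 1000 bp counted, 4 DMSO Pol I peaks had one in place of 1, and 0 at the stricter score, which removes the Pol I peak that overlapped. No paired analysis was possible because each group has 1 library. Listed peaks start at a score of 50, and the lists give no depth, so weaker occupancy was not measurable.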

Other observations

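No listed DMSO Pol II peak overlapped the widest DMSO Pol I peaks, a group formed after the leading peaks had been seen. Of the 40 DMSO Pol I peaks wider than 2000 bp, among them the leading peaks of TFAP4, GSE1 and TYMP and ODF3B, 0 were overlapped by a DMSO Pol II peak (exact 95% interval 0 to 8.81%), against 14.0% (13.7 to 14.3) of the whole list. Of the 200 highest-scored DMSO Pol I peaks, 30 were overlapped, 15.0% (10.4 to 20.7). A DMSO Pol II peak lay within 10 kb of 15 of the 40 wide peaks and of 112 of the 200 highest-scored, against 34.1% of the whole list. The width limit was chosen after the data were seen, the difference was not tested, and any Pol II peak that was called and not listed could not be counted.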
